A study of Mus musculus with 45 samples.

Results

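The mRNA levels of 28 genes of cholesterol biosynthesis, uptake and SREBP2 control were followed in 2 mouse tumour lines. The genes were chosen by name, with earlier results of these data known, from the 55335 genes of each deposited expression table. All 28 were found in both tables. They comprise 7 genes of the mevalonate steps, 11 of the squalene and sterol steps, 5 of SREBP control and 5 of sterol transport and uptake. Cholesterol is built from acetyl-CoA through mevalonate and the isoprenoids to squalene, which is closed to lanosterol and then trimmed and reduced to cholesterol. When membrane sterol is low, the escort protein SCAP carries the membrane-bound precursor SREBP2 from the endoplasmic reticulum to the Golgi, where it is cut. The freed transcription factor then switches on the genes of synthesis and uptake. When sterol is plentiful, INSIG proteins hold SCAP and its cargo back. SOAT1, the enzyme targeted in the study, esterifies free cholesterol for storage in lipid droplets.

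RNA was sequenced from CT26, a colon carcinoma line, and from Hepa1-6, a liver line, both grown in 6-well plates. In the drug experiment, cells labelled as wild type were exposed for 48 hours either to DMSO, the solvent, or to an agent that the labels name only as stk, at a dose not given in the sources used here. In the knockdown experiment, untreated lines that carried a hairpin RNA were collected 24 hours after seeding. CT26 carried a control hairpin against luciferase (shLucif) or 1 of 3 hairpins to Soat1, named sh1, sh2 and sh3. Hepa1-6 carried shLucif or a scrambled hairpin; its Soat1 hairpins were not analysed here. Each of these 10 groups had 3 libraries. The labels do not say that the libraries of a group came from separate cultures or clones, so p-values measure only the spread between these libraries. The stk experiment has no hairpin, and every library of the knockdown experiment carries one.

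Levels are given as FPKM, fragment counts scaled by transcript length and by the total of the library. The FPKM of a library summed to between 314827 and 335813, and 11159 to 11555 genes reached 1 FPKM. Read totals are not part of these tables, so the depth behind a value is unknown, and intervals for counting error are not given. The colon label of CT26 was not matched by epithelial markers: Epcam, Cdh1 and Lgr5 were listed at 0 in every DMSO library, although Krt20 averaged 26.5 FPKM. In Hepa1-6 under DMSO, 6 of 10 hepatocyte markers averaged at least 1 FPKM (albumin, Alb, 159 FPKM), and Serpina1a was at 0 in every library. The 3 libraries labelled Hepa1-6 shLucif stood apart from the other Hepa1-6 libraries. Their hepatocyte marker list of 10 genes summed to 16.1 to 16.7 FPKM, against 322 to 359 in the scramble libraries and 312 to 339 under DMSO. The comparison that rests on these libraries is therefore given last and under their label. In the GENCODE M21 annotation, 10 members share exon bases with another gene, 5 of them over 10% of their exon bases: Fdps (26.7%, with Gm43738), Fdft1 (18.3%, with Ctsb on the opposite strand), Scap (13.2%), Hmgcs1 (12.1%) and Tm7sf2 (12.1%). Fdps and Tm7sf2 share bases with a gene on the same strand, and the others with a gene on the opposite strand. Whether the authors' counting used strand is not given in the sources used here. The values of these 5 genes are therefore less certain.

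Of the 28 genes, 22 have a promoter window in the RefSeq table of build GRCm38.p6, which spans 250 bases before and 50 after a transcript start. Hmgcs1, Mvd, Insig1 and Npc2 are shown because they cover 3 roles and 3 patterns of response to the hairpins: Hmgcs1 and Mvd for synthesis, Insig1 for feedback and Npc2 for lysosomal sterol export. The stretches hold no annotated exon and read 5′ to 3′ on the gene's strand. Capitals mark CCAAT boxes, the NF-Y motif, on either strand (CCAAT or ATTGG) and the sterol regulatory element TCACNCCAC.
Hmgcs1, chr13:119690101-119690350, plus strand: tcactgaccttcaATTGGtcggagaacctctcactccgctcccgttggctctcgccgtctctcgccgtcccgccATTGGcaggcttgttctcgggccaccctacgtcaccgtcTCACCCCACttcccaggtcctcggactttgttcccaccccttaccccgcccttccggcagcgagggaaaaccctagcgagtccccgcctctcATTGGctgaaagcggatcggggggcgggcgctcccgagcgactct
Mvd, chr8:122443423-122443672, minus strand: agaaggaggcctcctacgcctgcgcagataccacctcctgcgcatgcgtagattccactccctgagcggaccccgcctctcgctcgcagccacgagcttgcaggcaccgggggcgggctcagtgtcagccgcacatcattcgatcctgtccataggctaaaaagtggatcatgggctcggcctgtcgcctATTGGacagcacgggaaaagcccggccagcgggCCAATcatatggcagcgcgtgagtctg
Insig1, chr5:28071162-28071362, plus strand: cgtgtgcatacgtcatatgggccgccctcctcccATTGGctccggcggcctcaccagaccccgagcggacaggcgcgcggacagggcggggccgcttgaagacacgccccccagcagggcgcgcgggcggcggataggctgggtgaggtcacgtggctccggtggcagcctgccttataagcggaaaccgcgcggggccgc
Npc2, chr12:84773153-84773250, minus strand: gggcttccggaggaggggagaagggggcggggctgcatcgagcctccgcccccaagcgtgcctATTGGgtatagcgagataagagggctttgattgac
The sterol regulatory element, the textbook SREBP motif, was matched in 1 of the 22 genes, Hmgcs1, and in 1.44% of the 27025 genes with a window. CCAAT was present in 20 of the 22 genes, all but Acat2 and Scap, against 41.1% of all genes. GGGCGG, the Sp1 box, was present in 20 of the 22, all but Pmvk and Npc1l1, against 38.2% of all genes. The exact DR4 repeat of the oxysterol receptors LXR was in 0 of the 22 and in 0.0148% of all genes. Both strands were searched in the whole windows, and no matches of different motifs shared bases. A match is a run of letters and was not tested as a binding site.

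Under DMSO, CT26 carried more transcript of the feedback gene Insig1 and of the mevalonate genes Acat2, Mvk, Pmvk and Mvd, and Hepa1-6 carried more of Hsd17b7, Sqle and Msmo1. The 28 genes summed to 502 ± 16.4 FPKM (SD, n = 3) in CT26 and 398 ± 11.6 in Hepa1-6. In a limma model of log2(FPKM + 1), 13 of the 26 genes that passed a filter of 1 FPKM in 3 libraries were higher in CT26, where 38.5% of all 12822 genes tested were, and 7 were lower, where 38.4% were. A gene counts as called where its p, adjusted by the Benjamini-Hochberg method over all genes tested, was under 0.05. Most genes differed between the lines (76.8% called either way), so these counts are a description. In bulk samples, fewer cells of a kind and less RNA per cell cannot be told apart. The other 2 genes failed the filter in every comparison: the sterol reductase gene Tm7sf2 averaged 0.494 to 0.879 FPKM over the 10 groups, and Npc1l1, the intestinal cholesterol importer, at most 0.0754.

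Insig1 had 28.8, 26.8 and 28.1 FPKM in CT26 and 6.73, 8.15 and 6.69 in Hepa1-6. Its difference of 1.82 on the log2 scale (SE 0.219, adjusted p = 1.53e-05) was the largest among the members, and the lines did not overlap. Acat2, which joins acetyl-CoA units at the entry of the pathway, averaged 28.7 ± 1.03 FPKM in CT26 and 10.2 ± 0.886 in Hepa1-6 (log2 difference 1.41, SE 0.111, adjusted p = 3.58e-07). Mvk and Pmvk, the kinases of mevalonate, were higher in CT26 by 1.34 and 1.05, as was Mvd, the decarboxylase that follows them, at 14.3 ± 0.414 against 6.69 ± 0.848 FPKM (adjusted p = 9.54e-05). Npc2, which passes cholesterol on inside lysosomes, averaged 44.2 ± 0.687 FPKM in CT26 and 18.2 ± 0.491 in Hepa1-6, a log2 difference of 1.24. Cyp51, the lanosterol demethylase, was the most abundant member in CT26, at 47.4 ± 2.02 FPKM against 27.4 ± 1.71 in Hepa1-6, a log2 difference of 0.77. Nsdhl and Ebp, of the demethylation and isomerisation steps, were higher in CT26 by 0.77 and 0.68, and Lss, Scarb1, Stard4 and Scap by 0.42, 0.42, 0.33 and 0.22.

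The genes higher in Hepa1-6 were led by Hsd17b7, a sterol ketone reductase, at 9.11, 10.2 and 8.42 FPKM against 2.86, 2.88 and 3.24 in CT26 (log2 difference -1.36, SE 0.108, adjusted p = 4.04e-07). Sqle, the squalene epoxidase, averaged 43.2 ± 1.07 FPKM in Hepa1-6 and 28.6 ± 3.19 in CT26, a log2 difference of -0.58. Msmo1, the sterol methyl oxidase, and Npc1, the lysosomal partner of Npc2, differed by -0.45 and -0.44. Npc1 and Npc2, which act in the same export step, thus differed in opposite directions between the lines. Insig2, Hmgcs1 and Sc5d, the C5 desaturase, differed by -0.37, -0.36 and -0.34, and the call of Hmgcs1, the gene of HMG-CoA synthase, was lost in 4 of 12 fits that left out 1 library: without DMSO replicate 1 or 2 of CT26, or 2 or 3 of Hepa1-6 (adjusted p up to 0.126). Srebf2, the gene of SREBP2, was not called, at 33.8 ± 1.16 FPKM in CT26 and 30.4 ± 2.54 in Hepa1-6 (log2 difference 0.15, adjusted p = 0.136), nor was Srebf1 (20.5 ± 0.625 and 21.0 ± 1.64).

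**Figure D1:**
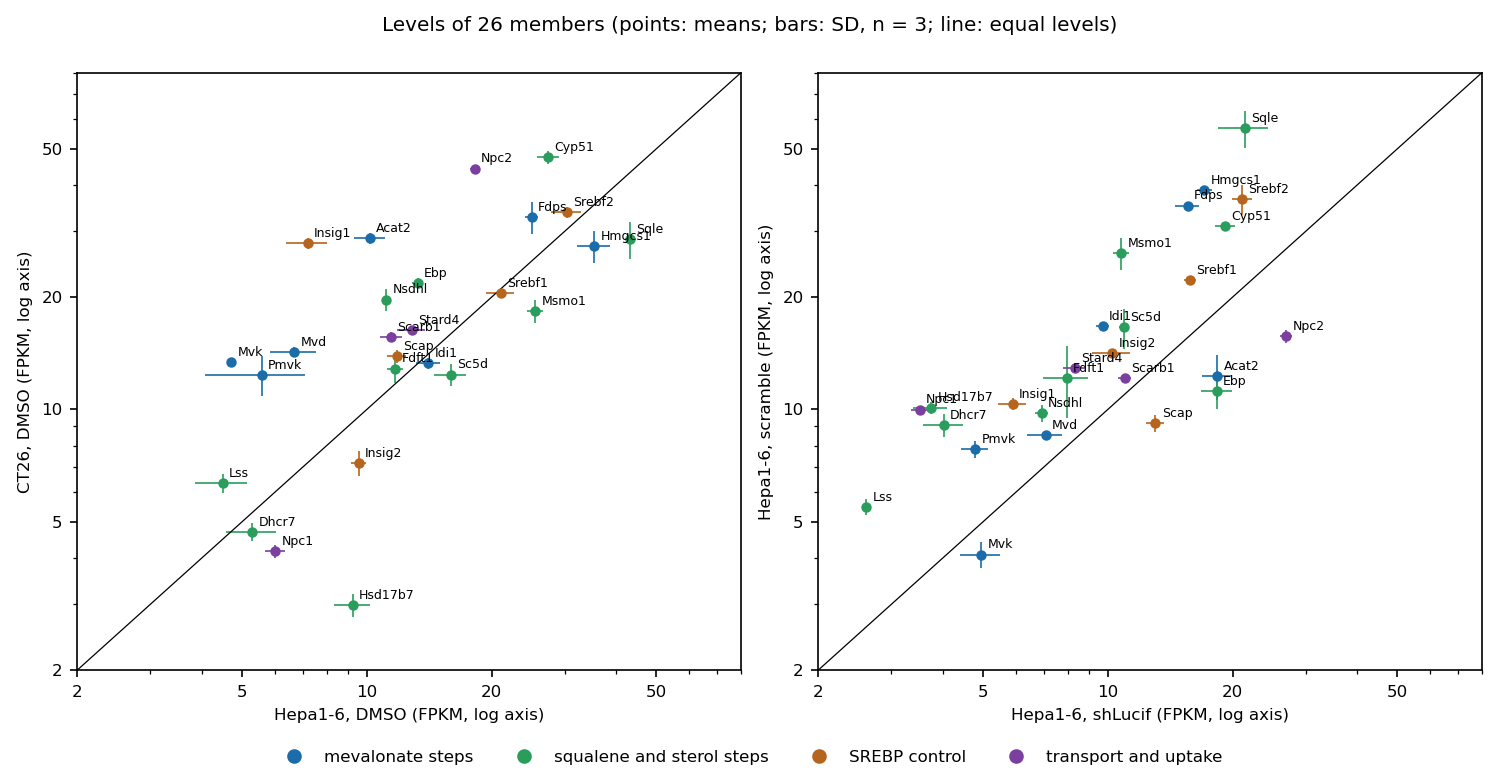
FPKM of each member on log axes: on the left, the mean of the 3 CT26 DMSO libraries against the mean of the 3 Hepa1-6 DMSO libraries; on the right, Hepa1-6 scramble against the libraries labelled Hepa1-6 shLucif. Members off the diagonal differ, with Insig1 at 27.9 FPKM in CT26 and 7.19 in Hepa1-6 on the left, and Npc1 and Npc2 on opposite sides of the diagonal in both panels.

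In CT26 exposed to stk, no member passed the test, but the means of most lay below those of DMSO. Of the 26 genes tested 0 were called, where 0.748% of all 11358 genes were, and 9 had an unadjusted p under 0.05 (8 lower and 1 higher), against 14.6% of all genes. Log2 differences were below 0 for 23 genes, with a median of -0.23 for the members and -0.01 for all genes. These included all 7 mevalonate genes and all 10 sterol genes tested, 3 of 5 control genes and 3 of 4 transport genes. For 10 members all 3 stk libraries lay below all 3 DMSO libraries, where this held for 12% of all genes tested, and for 1, Npc1, all lay above, where it held for 9.42%.

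The 3 members with the smallest p were Dhcr7, Ebp and Stard4. Dhcr7, the reductase of the last step to cholesterol, had 4.64, 4.46 and 4.99 FPKM under DMSO and 3.60, 2.90 and 3.05 under stk (log2 difference -0.45, SE 0.0813, adjusted p = 0.0732). Its groups did not overlap, and it was called in 1 alternative, a single model over both lines (adjusted p = 0.0395). Ebp had 21.2, 22.4 and 21.9 FPKM under DMSO and 19.9, 18.3 and 17.4 under stk, again without overlap (log2 difference -0.23, SE 0.057, adjusted p = 0.156). Stard4, a cytosolic carrier of cholesterol, had 16.3 FPKM in each DMSO library and 14.7, 11.9 and 14.2 under stk (log2 difference -0.25, SE 0.0783, adjusted p = 0.224). Cyp51 differed by more than Ebp and Stard4, with a wider spread under stk: it had 45.9, 46.6 and 49.7 FPKM under DMSO and 40.0, 27.6 and 39.7 under stk (log2 difference -0.42, SE 0.14, adjusted p = 0.255).

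The size of these differences rested largely on 1 library. CT26 stk replicate 2 was the lowest of the 6 libraries in 21 of 26 members (80.8%), and in 20.5% of all genes tested. Its median log2 difference from the DMSO mean was -0.52 over the members, against -0.08 in stk replicate 1 and -0.14 in stk replicate 3. The summed FPKM of the 28 genes was 482, 357 and 453 in the 3 stk libraries and 490 to 520 under DMSO. Without that library the members' median was -0.09 in place of -0.23, with 21 of 26 members below 0. Insig1 shows the split: 32.3 and 31.6 FPKM in stk replicates 1 and 3, above every DMSO library, and 15.4 in replicate 2. The cause of the lower values in replicate 2 was not tested.

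**Figure D2:**
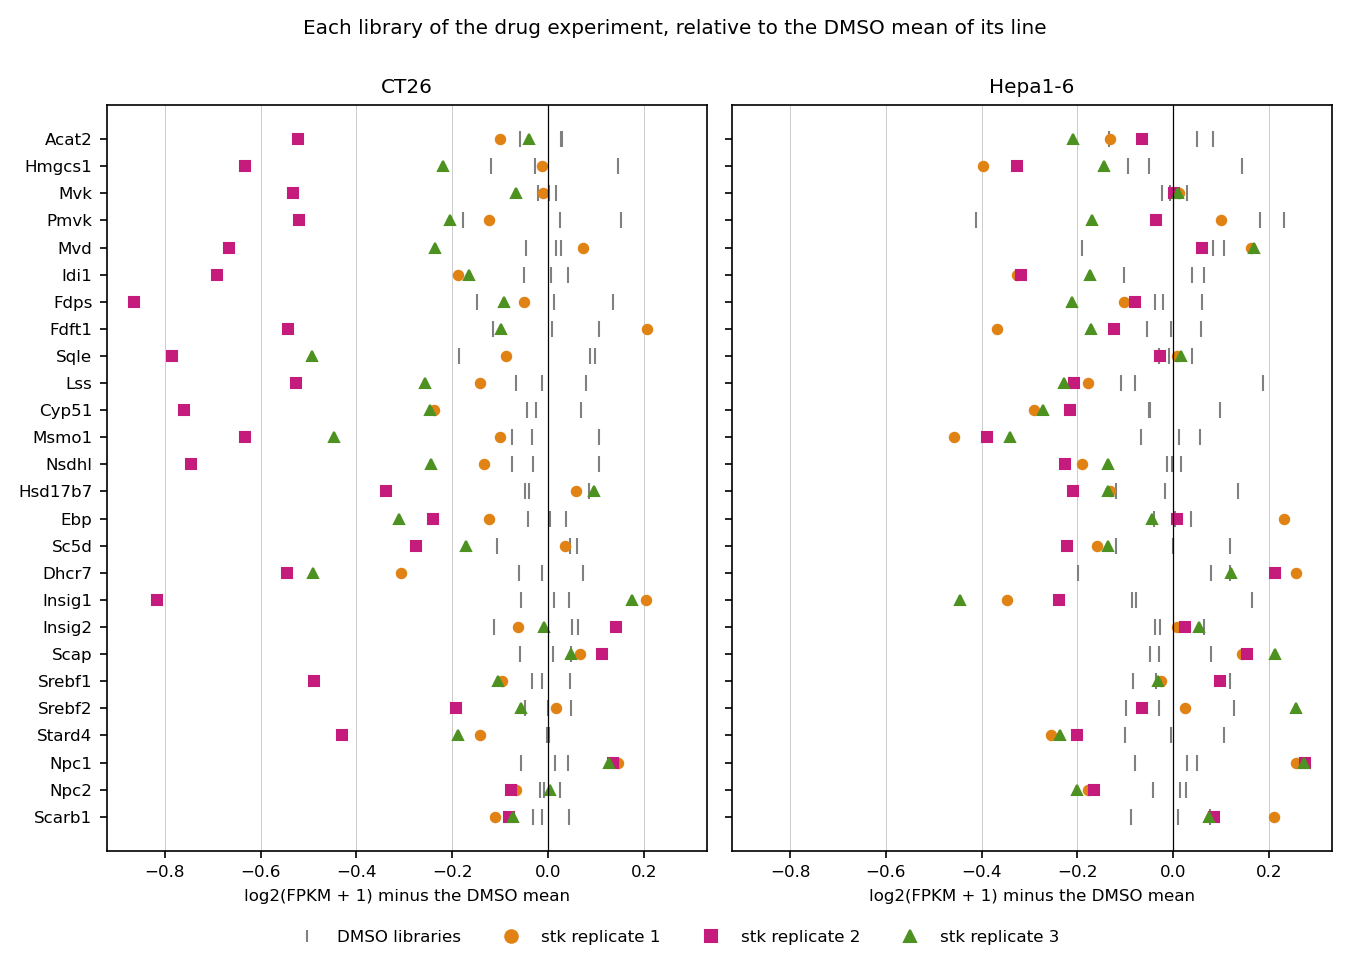
Each library's log2(FPKM + 1) minus the mean of the DMSO libraries of its line, for the 26 members tested, in CT26 and Hepa1-6; grey ticks are DMSO libraries and coloured marks the stk libraries, by replicate. CT26 stk replicate 2 lies lowest, with a median of -0.52, while the Hepa1-6 stk libraries lie near one another.

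In Hepa1-6 exposed to stk, Msmo1 fell and no other member was called. Msmo1 had 26.5, 25.7 and 24.2 FPKM under DMSO and 18.3, 19.2 and 19.9 under stk (log2 difference -0.40, SE 0.0508, adjusted p = 0.0409). Lower calls were 0.849% of the 11426 genes tested, and 0 members were called higher, where 0.683% of all genes were. The call of Msmo1 was lost whenever any 1 library was left out (adjusted p 0.0594 to 0.123). The members' median was -0.13 and that of all genes 0.00, and 13 members had an unadjusted p under 0.05 (11 lower, 2 higher), against 23.8% of all genes.

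For 13 members the Hepa1-6 stk libraries all lay below DMSO, where this held for 14.6% of all genes tested, and for 3 they all lay above, where it held for 16.2%. Cyp51 had 26.4, 29.4 and 26.4 FPKM under DMSO and 22.2, 23.4 and 22.5 under stk (log2 difference -0.26, SE 0.053, adjusted p = 0.06). Npc1, with 6.26, 6.15 and 5.63 FPKM under DMSO, had 7.37, 7.48 and 7.47 under stk (log2 difference 0.27, SE 0.0537, adjusted p = 0.0582). Npc1 was thus above DMSO in every stk library of both lines, though it was not called in either. Insig1 had 5.42, 5.93 and 5.00 FPKM under stk, below its DMSO range of 6.69 to 8.15 (log2 difference -0.34, adjusted p = 0.0902). The 28 genes summed to 398 ± 11.6 FPKM under DMSO and 370 ± 4.82 under stk.

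No member's response to stk was called different between the lines, where 0.304% of 12822 genes were, and 5 had an unadjusted p under 0.05, against 13.9% of all genes. The members' median difference of -0.12 was 0.00 without CT26 stk replicate 2. The member nearest to a call was Dhcr7, whose response in CT26 minus that in Hepa1-6 was -0.64 (SE 0.128, 95% interval -0.93 to -0.36, adjusted p = 0.0827). In Hepa1-6 its values were 5.80, 5.61 and 4.45 FPKM under DMSO and 6.48, 6.25 and 5.81 under stk, all above, while in CT26 all stk values lay below. Ebp and Scarb1, the HDL receptor gene, followed with differences of -0.29 and -0.21 (adjusted p = 0.242 and 0.243). For Msmo1, Hmgcs1 and Insig1 the difference was 0.00, 0.00 and 0.20, with 95% intervals of -0.34 to 0.35, -0.44 to 0.44 and -0.49 to 0.88.

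The hairpins against Soat1 were compared with shLucif in CT26. Soat1 itself was at 19.9 ± 0.254 FPKM with shLucif and averaged 3.27, 3.47 and 2.59 with sh1, sh2 and sh3. With the mean of the 3 hairpins, 17 of 26 members tested were higher, where 23.4% of all 11832 genes were, and 0 were lower, where 19.8% were. Of the 17, Pmvk, Fdps and Sqle lost the call without shLucif replicate 2 (Sqle also without replicate 1), with adjusted p up to 0.0516, 0.0565 and 0.0804. With sh1, 8 members rose and 2 fell, against 19.1% and 18.7% of all genes, and with sh2 10 rose and 3 fell, against 18.9% and 20% of all genes. With sh3, 21 rose and 2 fell, against 30.9% and 21.6% of all genes. Called higher with each hairpin alone were 5 members: Sc5d, Dhcr7, Insig1, Npc2 and Scarb1. How many of all genes were so called was not counted. Npc1, higher with the mean of the 3, was lower with sh3. The members' median log2 difference was 0.47 with sh3, where that of all genes was 0.04. Hsd17b7 passed the filter only through the sh3 libraries, where it was high. Without it, 16 of 25 rose with the mean of the hairpins and 20 of 25 with sh3, where the median was 0.46. The 3 comparisons share the shLucif libraries, so they are not independent of one another.

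Summed over the 7 mevalonate genes, FPKM were 60.4 ± 3.44 with shLucif and 103 ± 8.71 with sh3, and 65.2 ± 3.33 and 65.8 ± 2.37 with sh1 and sh2. All 7 rose with sh3, where 30.9% of all genes did. Acat2 had 6.74, 6.66 and 6.31 FPKM with shLucif and 18.4, 18.5 and 17.7 with sh3 (log2 difference 1.34, SE 0.144, adjusted p = 1.79e-05). With sh1 (5.60, 8.16 and 5.26) and sh2 (8.88, 5.88 and 7.22) it overlapped shLucif and was not called. Mvk, with 3.88, 3.53 and 4.21 FPKM with shLucif, had 10.5, 10.4 and 7.76 with sh3 (log2 difference 1.11, SE 0.15, adjusted p = 9.72e-05). Mvd, with 2.78, 2.71 and 3.29 FPKM with shLucif, had 8.19, 7.26 and 5.13 with sh3 (log2 difference 0.98, SE 0.132, adjusted p = 8.94e-05). Neither was called with sh1 or sh2, where Mvk averaged 5.53 and 5.19 FPKM and Mvd 3.90 and 3.49.

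Hmgcs1 and Idi1, the isomerase that makes the allylic isoprenoid, fell with sh1 and sh2 and rose with sh3. Hmgcs1 had 9.28, 8.51 and 9.05 FPKM with shLucif; the sh1 libraries had 7.44, 6.79 and 7.06, the sh2 libraries 6.53, 7.02 and 7.21 and the sh3 libraries 18.3, 15.9 and 14.5. It fell with sh1 (log2 difference -0.30, SE 0.0752, adjusted p = 0.00958) and sh2 (-0.33, adjusted p = 0.00534) and rose with sh3 (0.79, adjusted p = 7.69e-06), with no overlap. Idi1 had 4.97, 4.60 and 4.83 FPKM with shLucif; the sh1 libraries had 3.54, 2.96 and 3.90, the sh2 libraries 3.98, 3.92 and 3.65 and the sh3 libraries 10.6, 11.1 and 8.74. Its log2 differences were -0.38 (adjusted p = 0.00688), -0.26 (adjusted p = 0.0446) and 0.94 (adjusted p = 9.13e-06). The sh2 call of Idi1 was lost in 8 of 12 fits without 1 library (adjusted p up to 0.123). Pmvk rose by 0.22 with sh1, a call lost in 7 of 12 such fits (adjusted p up to 0.148), and by 0.32 with sh3. Fdps, the farnesyl diphosphate synthase, rose by 0.23 with sh2, a call lost without shLucif replicate 2 or sh2 replicate 1 or 2 (adjusted p up to 0.125), and by 0.29 with sh3.

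**Figure D3:**
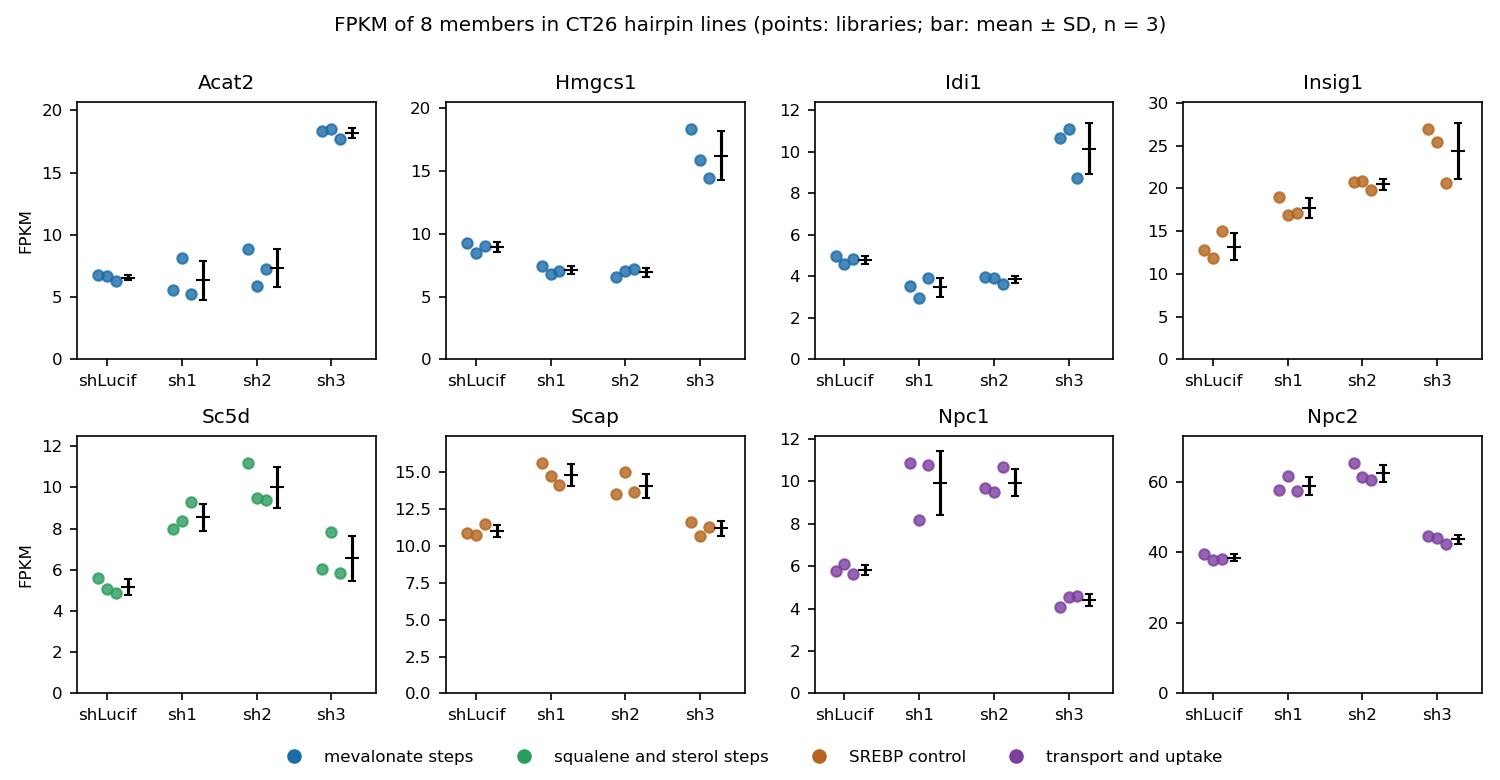
FPKM of 8 members in the CT26 libraries with shLucif, sh1, sh2 and sh3; each point is a library, and the black bar gives the mean ± SD of 3. Acat2, Hmgcs1 and Idi1 are high with sh3 alone, Sc5d and Npc2 are highest with sh1 and sh2, Scap is raised with sh1 and sh2 only, Insig1 is raised with all 3, and Npc1 lies above shLucif with sh1 and sh2 and below it with sh3.

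In the sterol branch, 6 of 9 genes rose and 1 fell with sh3, leaving out Hsd17b7 (7 of 10 with it). Of all genes tested, 30.9% rose and 21.6% fell with sh3. Nsdhl had 6.95, 5.94 and 6.86 FPKM with shLucif and 16.3, 15.3 and 13.9 with sh3 (log2 difference 1.09, SE 0.0938, adjusted p = 3.69e-06). With sh1 and sh2 it averaged 7.94 and 8.08 FPKM and was not called. Hsd17b7, given as levels only because of how it passed the filter, averaged 0.808 FPKM with shLucif and 2.07 with sh3, and 0.868 and 0.99 with sh1 and sh2. Cyp51 rose by 0.65 with sh3, from 25.5 ± 1.59 to 40.6 ± 1.92 FPKM, and by 0.22 with sh2, a call lost without replicate 1 or 2 of shLucif or of sh2 (adjusted p up to 0.132). Msmo1 rose by 0.42 with sh3 and 0.32 with sh2, and Sqle by 0.41 with sh3, where 1 sh3 library overlapped shLucif (28, 29.0 and 20.5 against 18.8, 17.6 and 20.6 FPKM). Lss, the lanosterol synthase, fell with sh3, from 3.22 ± 0.077 to 2.63 ± 0.197 FPKM (log2 difference -0.22, SE 0.0598, adjusted p = 0.00943).

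Dhcr7 and Sc5d, of the last steps, rose with all 3 hairpins. Dhcr7 had 1.38, 1.47 and 2.11 FPKM with shLucif; the sh1 libraries had 2.53, 2.47 and 2.70, the sh2 libraries 2.26, 2.69 and 2.24 and the sh3 libraries 4.29, 3.90 and 3.56. Its log2 differences were 0.44 (adjusted p = 0.00585), 0.36 (adjusted p = 0.015) and 0.90 (adjusted p = 2.6e-05), and no hairpin overlapped shLucif. The sh2 call was lost without shLucif replicate 1 or 2 or sh2 replicate 2 (adjusted p up to 0.0612). Sc5d had 5.62, 5.07 and 4.86 FPKM with shLucif; the sh1 libraries had 7.99, 8.35 and 9.28, the sh2 libraries 11.2, 9.48 and 9.36 and the sh3 libraries 6.06, 7.82 and 5.82. It was highest with sh1 and sh2 (log2 differences 0.62 and 0.83, adjusted p = 0.000675 and 9.16e-05). Its smaller rise with sh3, 0.28, lost its call without shLucif replicate 2 or 3 or sh3 replicate 2 (adjusted p up to 0.143). Fdft1, the squalene synthase, and Ebp were called with none of the hairpins. In Fdft1, 1 sh1 library (11.1 FPKM) lay below all shLucif libraries and the other two (20.1 and 19.0) above.

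Of the SREBP control genes, Insig1 rose with all 3 hairpins. It had 12.8, 11.8 and 15.0 FPKM with shLucif; the sh1 libraries had 19.0, 16.9 and 17.2, the sh2 libraries 20.8, 20.9 and 19.8 and the sh3 libraries 26.9, 25.5 and 20.7. All hairpin libraries lay above all shLucif libraries, and the log2 differences were 0.40, 0.60 and 0.83 (SE 0.0989 each, adjusted p = 0.00808, 0.000672 and 3.75e-05). Scap had 10.9, 10.7 and 11.5 FPKM with shLucif; the sh1 libraries had 15.6, 14.8 and 14.1, the sh2 libraries 13.6, 15.0 and 13.7 and the sh3 libraries 11.6, 10.7 and 11.3. It rose with sh1 (0.40, adjusted p = 0.000205) and sh2 (0.33, adjusted p = 0.000768), and with sh3 its libraries overlapped shLucif (0.02, adjusted p = 0.766). Srebf1, the gene of SREBP1, went the other way: it fell by 0.22 with sh2 (adjusted p = 0.0112) and rose by 0.46 with sh3 (adjusted p = 4.84e-05), from 13.7 ± 0.393 to 19.3 ± 1.25 FPKM. Srebf2 rose with sh3 (0.47, adjusted p = 0.021), where 1 of its libraries overlapped shLucif (30.6, 28.2 and 21.2 against 17.4, 22.1 and 17.1 FPKM). That call was lost without shLucif replicate 1 or 3 or sh3 replicate 1 or 2 (adjusted p up to 0.0854), and sh3 was not called different from sh1 and sh2 (0.31, adjusted p = 0.0588). Insig2 rose by 0.21 with sh3, a call lost in 8 of 12 such fits (adjusted p up to 0.158).

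Among the transport genes, Npc2 and Npc1 rose with sh1 and sh2. Npc2 had 39.5, 37.7 and 38.0 FPKM with shLucif; the sh1 libraries had 57.6, 61.6 and 57.2, the sh2 libraries 65.2, 61.4 and 60.4 and the sh3 libraries 44.6, 44.0 and 42.2. Its log2 differences were 0.60, 0.68 and 0.18 (SE 0.0427 each, adjusted p = 1.69e-06, 6.63e-07 and 0.00448), without overlap. Npc1 had 5.76, 6.08 and 5.63 FPKM with shLucif; the sh1 libraries had 10.8, 8.17 and 10.7, the sh2 libraries 9.67, 9.48 and 10.6 and the sh3 libraries 4.09, 4.54 and 4.59. It rose by 0.67 and 0.68 with sh1 and sh2 (adjusted p = 0.000201 and 0.000176) and fell by 0.34 on the log2 scale with sh3 (adjusted p = 0.00932). It was the only member called higher with sh1 and sh2 and lower with sh3. Scarb1 rose with all 3 hairpins, by 0.28, 0.20 and 0.72, from 12.3 ± 0.0892 FPKM to 15.1, 14.3 and 20.9, with the sh2 call lost without sh2 replicate 2 or 3 (adjusted p up to 0.0566). Stard4 rose with sh3, by 0.54 (adjusted p = 0.000127), from an average of 7.05 FPKM to 10.7, and averaged 6.36 and 6.63 with sh1 and sh2, from which sh3 differed by 0.64 (adjusted p = 8.24e-06).

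**Figure D4:**
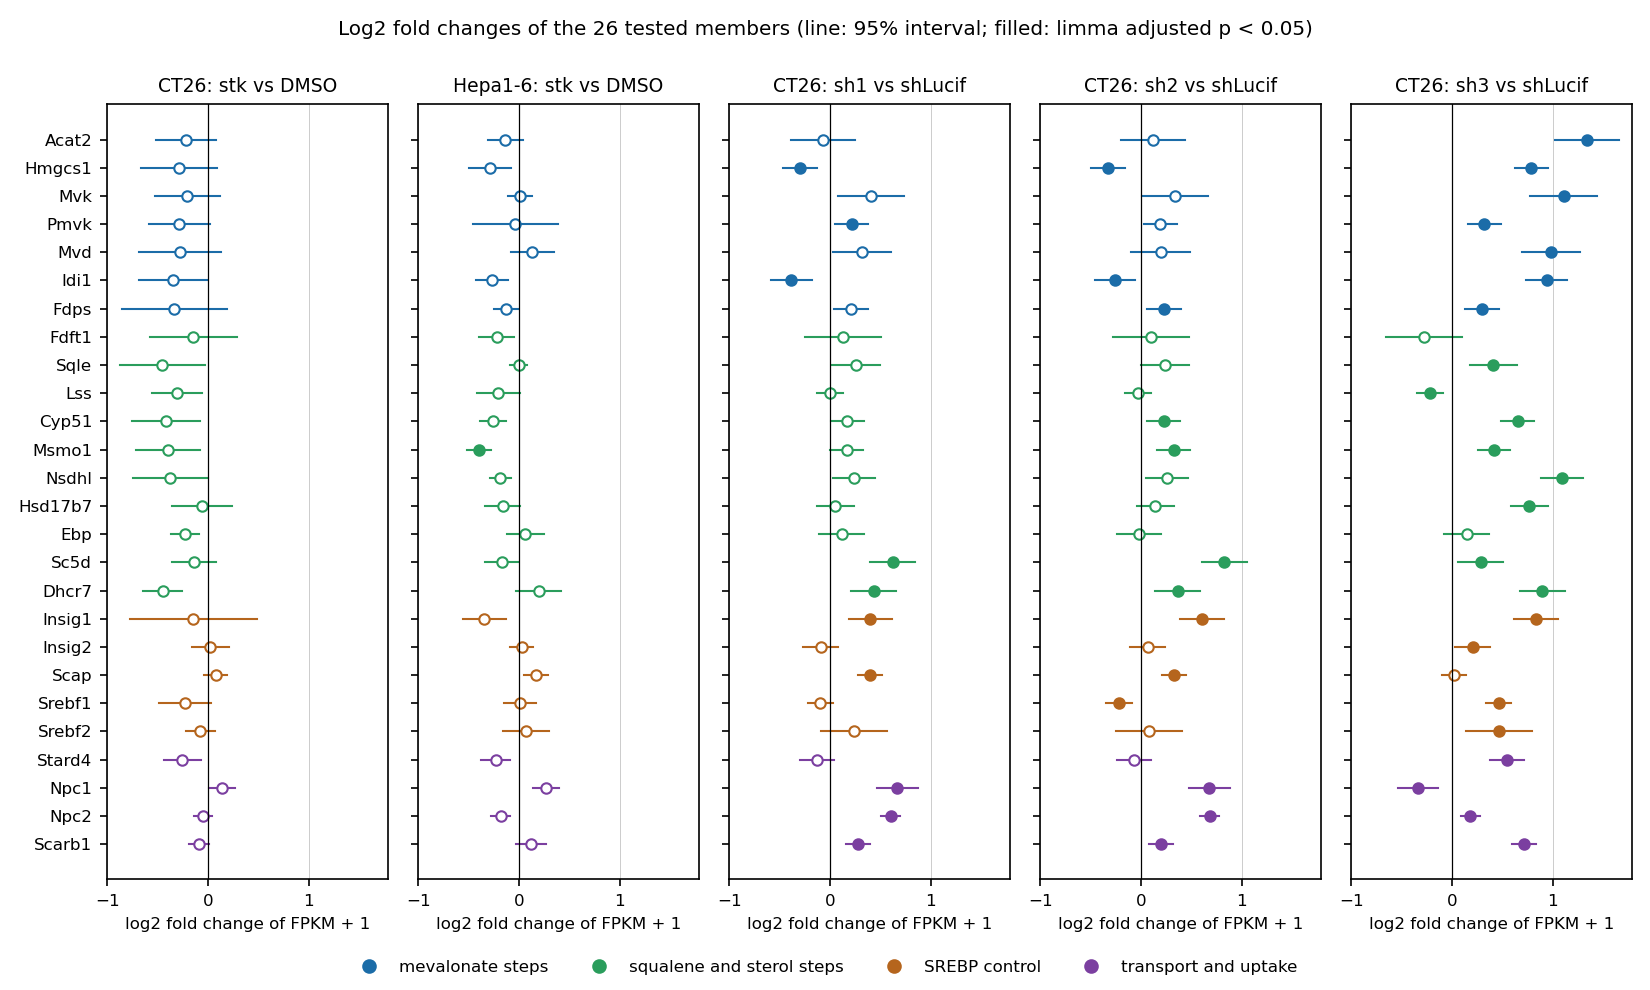
Log2 difference in FPKM + 1, with its 95% interval, of the 26 members tested in 5 comparisons: stk against DMSO in CT26 and in Hepa1-6, and sh1, sh2 and sh3 against shLucif in CT26. Filled points passed the test. With sh3, 21 members rose, where 30.9% of all genes did. Under stk the only filled point is Msmo1 in Hepa1-6, at -0.40.

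The difference between sh3 and the mean of sh1 and sh2 was tested in the same model. This contrast was chosen with earlier results of these data known. Of the 26 members, 15 were higher with sh3 (14 of 25 without Hsd17b7), where 35.5% of all genes were, and 6 were lower, where 24.7% were. Acat2, Idi1 and Hmgcs1 were higher by 1.31, 1.26 and 1.10 on the log2 scale (SE 0.125, 0.0793 and 0.0651, adjusted p = 4.46e-06, 2.09e-07 and 1.31e-07). Npc1, Npc2, Sc5d and Scap were lower by 1.01, 0.46, 0.44 and 0.34, with adjusted p of 1.03e-06, 1.18e-06, 0.00115 and 8.47e-05. Fdft1 and Lss were the other 2 lower genes (-0.39 and -0.20), and the call of Fdft1 was lost in 9 of 12 fits without 1 library (adjusted p up to 0.111). Cell type markers moved with sh3 too. The fibroblast list, with 4 of 6 genes at 1 FPKM or more, summed to 173 to 181 FPKM with sh3, against 107 to 122 with shLucif, sh1 and sh2. The intestinal list, with 3 of 9 such genes with sh3, summed to 43.1 to 47.4 FPKM, against 24.2 to 36.0. The leukocyte list, with 1 of 6 such genes, was lower with sh3, at 5.43 to 5.72 FPKM against 6.36 to 8.36. The collagen gene Col1a1 averaged 18.6 FPKM with shLucif and 56.0 with sh3, and Krt20 averaged 21.1 and 41.9. Their part in the members' differences was not tested.

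A further 38 genes of the pathway's branches and regulators were counted in the same way. With sh3, 10 rose and 12 fell of 36 tested, beside 30.9% and 21.6% of all genes, and the isoprenoid branches past Fdps counted 1 rise and 6 falls among 10. Ube2g2, of sterol-driven protein degradation, and Stard5, a sterol carrier, fell by 1.25 and 1.11 on the log2 scale, and the endocytic receptor gene Lrp1 rose by 0.72. With sh1, 8 rose and 8 fell, beside 19.1% and 18.7% of all genes, and with sh2 10 rose and 7 fell, beside 18.9% and 20%. Their difference from the members was not tested. Icmt, a methyltransferase of prenylated proteins, rose by 0.59 and 0.51, and Mbtps2, the protease that makes the second cut in SREBP, rose by 0.46 and 0.59. Under stk none of these genes was called by limma, of 35 tested in CT26 and 33 in Hepa1-6. At an unadjusted p under 0.05, 1 was higher and 2 were lower in CT26, where 14.6% of all genes had such a p, and 5 were higher and 1 was lower in Hepa1-6, where 23.8% did.

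In Hepa1-6, the scramble libraries were set against the libraries labelled shLucif, both controls without a Soat1 hairpin. Of 26 members, 21 were higher with scramble, where 31.4% of all 12055 genes were, and 4 were lower, where 36.8% were. The median was 0.59 for the members and -0.04 for all genes. Sqle had 52.5, 64.1 and 53.3 FPKM with scramble and 21.2, 24.5 and 18.5 in the libraries labelled shLucif (log2 difference 1.37, SE 0.115, adjusted p = 5e-05). Npc1 (1.28), Hsd17b7 (1.23), Msmo1 (1.21), Hmgcs1 (1.13), Fdps (1.13) and Dhcr7 (1.01) followed, and the other 14 higher genes lay between 0.13 (Scarb1) and 0.84 (Lss). Of these, Scarb1 lost its call in 4 of 6 fits without 1 library, Mvd without scramble replicate 1 and Fdft1 without replicate 3 of the libraries labelled shLucif (adjusted p up to 0.0847, 0.0527 and 0.053). The 4 lower genes were Npc2 (-0.74), Ebp (-0.66), Acat2 (-0.55) and Scap (-0.46). Mvk was not called (-0.22, adjusted p = 0.0554). Markers moved with this comparison: Alb averaged 135 FPKM with scramble and 1.49 in the libraries labelled shLucif. Col1a2, a collagen gene of the fibroblast list, averaged 0.0353 and 15.4, but that list as a whole went the other way. It summed to 247 to 266 FPKM with scramble and 43.4 to 49.6 in the libraries labelled shLucif. The intestinal list summed to 1861 to 1916 and 282 to 296. Their part in the result was not tested, and since these are the only shLucif libraries of this line, the comparison cannot be made without them.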

How the data were processed

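The authors deposited FPKM, with a table for each experiment, and these values were used as they stand. Per the labels' protocols, total RNA was isolated with TRIzol, some libraries (which ones is not given) were made with a SMARTer kit, paired-end reads came from an Illumina HiSeq, and Skewer trimmed them. The submitters' processing notes name the tools STAR, HISAT2, edgeR and DESeq2 and the build GRCm38. The step that produced the FPKM, and the version of each tool, were not given in the sources used here. Each library is scaled to its own total in FPKM, so a shift in the abundance of a few genes moves all others.

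The name of each deposited table points to the other experiment than its column names do, and the column names were followed. Columns were assigned to samples by their names: 30 of 45 labelled samples had a matching column, including 3 of the 6 stk samples of each line. A further 12 columns of the drug table and 9 of the knockdown table matched no label and were not used. The sh1 columns show the group but no single replicate number. The relative depth of a library within its table, from the smallest FPKM steps, was 0.895 to 1.125 and 0.883 to 1.301. No library was dropped or imputed.

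Differences were tested, two-sided, with limma 3.58.1 in R 4.3.3, with moderation by a trend in abundance, on log2(FPKM + 1), a scale that understates changes of genes with low FPKM. Only genes that reached 1 FPKM in 3 libraries of a model entered it. There was 1 model per line and experiment, and 1 of 12 libraries for contrasts between lines. P-values were adjusted by Benjamini-Hochberg over all genes tested, with a threshold of 0.05. An exact permutation test of 3 against 3 cannot go below p = 0.1. The script was tested on simulated data. Alternatives were a pseudocount of 0.1, no filter, a minimum of 5 FPKM, quantile or median-ratio scaling, no trend, 1 model per table, the replicate block, leaving out each library, removal of a trend with transcript length, and hairpin counts without Hsd17b7; the last 2 were chosen after seeing the data. The 2 tables were normalized separately and never tested against each other. All 28 members were assigned to a role. Library values or group means are given for a part of the called members, and only log2 differences or their range for the others. Where none was called, the 3 with the smallest p are named. The members, the other lists and the contrast of sh3 with sh1 and sh2 were chosen with earlier results of these data known. Deviations from the group mean correlated at -0.05 to 0.103 between same-numbered replicates and at -0.117 to 0.078 between others. For the CT26 drug libraries these ranges were -0.006 to 0.048 and -0.054 to 0.007. Numbers were not taken as pairs in the main fits, and the replicate block is an alternative.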

Additional observations from a re-analysis of the deposited data

How the results depend on the processing

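No result that was called, as reported or under the alternative, changed direction, and most kept their side of the threshold; 33 results that were not called changed sign under at least 1 alternative. Without CT26 stk replicate 2, the difference under stk in CT26 turned from -0.15 to 0.19 for Insig1, from -0.14 to 0.05 for Fdft1, from -0.06 to 0.08 for Hsd17b7 and from 0.02 to -0.03 for Insig2. For stk in CT26, members called lower rose from 0 to 1 with 1 model over the table (Dhcr7). That model called 204 of 12822 genes, against 85 of 11358 as reported. For stk in Hepa1-6, members called lower fell from 1 to 0 without a filter, without the trend and without any 1 library (0 to 0). They rose to 3 with a minimum of 5 FPKM (Cyp51, Npc2 and Msmo1). Members called higher rose from 0 to 1 with that minimum and with 1 model over the table (Npc1). All-gene calls were 473 of 7247 with that minimum, 928 of 12822 with 1 model and 175 of 11426 as reported. With the replicate block, 0 members were called lower in Hepa1-6 under stk (Msmo1, adjusted p = 0.128) and 0 in CT26. In each line 4 of all genes were called. The block left 7 higher and 3 lower with sh2 and 19 and 3 with sh3. It left 20 and 4 for scramble, and 13 and 7 between lines. All-gene calls with it were 4447 and 6210 of 11712 with sh2 and sh3, 8020 of 12055 for scramble and 9832 of 12822 between lines. No paired analysis was possible for sh1 because its columns carry no single replicate number. For the mean of the hairpins, members called lower rose from 0 to 1 with quantile scaling (Lss). With sh3, members called lower fell from 2 to 1 with a minimum of 5 FPKM. That fit tested 23 members and left out Lss, which averaged 3.22 FPKM with shLucif and 2.63 with sh3. It called 4547 of 7691 genes, against 6217 of 11832 as reported. Members called higher with sh3 fell from 21 to 19 with quantile or median-ratio scaling and to 18 with the length trend removed. Of all 11832 genes, 3656 were called higher as reported, 3088 and 3288 with these scalings and 3044 with the trend removed. Higher calls made up 58.8% of the called genes as reported, 49.5% with quantile scaling and 48.1% with the trend removed. With sh2, members called higher ranged from 6 to 12 when 1 library was left out, lowest without sh2 replicate 2. There 1889 of 11795 genes were called higher, against 2233 of 11832 as reported. All-gene calls for stk ranged from 2 to 204 in CT26 (85 as reported) and from 4 to 928 in Hepa1-6 (175 as reported). Log2 differences of all genes under stk correlated with transcript length (Spearman 0.182 in CT26 and 0.26 in Hepa1-6). For sh1, sh2 and sh3 this correlation was -0.00892, -0.0351 and 0.0409. With the length trend removed, stk calls were 63 of 11358 genes in CT26 and 91 of 11426 in Hepa1-6, with 0 and 1 members called lower. The causes were not tested. The depth behind each value is unknown.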

Other observations

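The levels of the members in CT26 controls differed between the experiments when set side by side. The tables were normalized separately and the difference was not tested. The experiments also differ in hairpin, in DMSO and in time (48 hours of exposure, 24 hours after seeding), and these cannot be told apart. The 7 mevalonate genes summed to 142 ± 8.15 FPKM (SD, n = 3) under DMSO, 60.4 ± 3.44 with shLucif and 103 ± 8.71 with sh3. Acat2 averaged 28.7 FPKM under DMSO, 6.57 with shLucif and 18.2 with sh3, and Mvd 14.3, 2.92 and 6.86. Insig2, the second INSIG gene, averaged 7.18, 7.41 and 8.69. Col1a1 averaged 54.7 FPKM under DMSO, 18.6 with shLucif and 56.0 with sh3.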
